A study of Mus musculus with 5 samples.

Results

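RYBP peaks that lay at the end of a protein-coding gene and overlapped no H2AK119ub were examined in mouse embryonic stem cells of the line MPI-II. They were chosen as peaks of the wild-type RYBP library, on the 17 autosomes other than 6 and 8, that shared no base with an H2AK119ub peak of either genotype and had their centre within 2 kb of the start or end of a gene in RefSeq. This gave 3002 peaks of the 8236 RYBP peaks on those chromosomes and of 9564 RYBP peaks in all. They made up 53.5% (95% Wilson interval 52.2% to 54.8%) of the 5612 RYBP peaks at gene ends there. Presence and absence of the peaks chose them, so that share is a description.

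Chromatin immunoprecipitation with sequencing (ChIP-seq) mapped H2AK119ub in DDX5-/- cells and in wild-type cells, and RYBP in wild-type cells only, where the antibody is listed under the alias DEDAF. The DDX5-/- line is 1 clone in which a pair of guides directed a Cas9 nickase to exon 2 of Ddx5, the gene of a DEAD-box RNA helicase. Cells of both genotypes grew on feeder cells in serum with leukemia inhibitory factor, the MEK inhibitor PD0325901 and the GSK3 inhibitor CH99021. Each of the 3 groups had 1 library, so comparisons rest on single libraries and carry no p-value. Intervals are at 95%, treat peaks or genes as independent counts and cover counting error only. The lists held 17144 DDX5-/- H2AK119ub peaks (median width 1017 bp), 20521 wild-type H2AK119ub peaks (1316 bp) and 8236 wild-type RYBP peaks (1596 bp) on these chromosomes. They give positions without heights, so depth is unknown, and an H2AK119ub domain too weak to be called counts as absent. Ddx5 itself had a RYBP peak of the kind described. RYBP was mapped in wild-type cells only, so its list cannot check the DDX5-/- label.

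RYBP is a subunit of variant Polycomb repressive complex 1, the enzyme that attaches a single ubiquitin to a lysine in the tail of histone H2A. It binds this mark as well as helping to place it. Variant complexes reach chromatin by several routes, among them the CpG-binding subunit KDM2B and, in the PCGF6 complex, the DNA-binding proteins MGA, MAX and E2F6, and RYBP itself also contacts transcription factors such as YY1. In embryonic stem cells H2AK119ub is best known from silent developmental genes.

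The promoters below are shown because their motifs belong to the families whose shares are given later, and each comes from the widest peak of the set whose nearest gene carried that motif. Each is the 250 bases before the annotated start, read 5′ to 3′ on the strand of the gene, from RefSeq on GRCm38.p6, the assembly of mm10, and each lay inside its RYBP peak. Capitals mark the motif on either strand, with positions counted back from the start. Anp32b, for a histone-binding nuclear protein (plus strand, chr4:46450676-46450925), held the ETS core CCGGAAG at -206 and -121, in a peak of 3438 bp. Rsrp1 (plus strand, chr4:134923375-134923624) held the NRF1 motif GCGCATGCG at -139, in a peak of 2288 bp. Tbx18, a T-box developmental regulator (minus strand, chr9:87731261-87731510), held the YY1 motif ATGGCGGC at -165, in a peak of 2746 bp. Hspa4, a chaperone of the Hsp110 family (minus strand, chr11:53300480-53300729), held the ZBTB33 motif TCTCGCGAG at -11 and -10, overlapping on the opposite strands, in a peak of 1945 bp. Hmga1, an architectural chromatin protein (plus strand, chr17:27556324-27556573), held the SP motif GGGCGG at -54, -48 and -12, in a peak of 3774 bp. Sox12, a SoxC factor (minus strand, chr2:152398047-152398296), held the NFY motif CCAAT at -203, in a peak of 3507 bp.
Anp32b: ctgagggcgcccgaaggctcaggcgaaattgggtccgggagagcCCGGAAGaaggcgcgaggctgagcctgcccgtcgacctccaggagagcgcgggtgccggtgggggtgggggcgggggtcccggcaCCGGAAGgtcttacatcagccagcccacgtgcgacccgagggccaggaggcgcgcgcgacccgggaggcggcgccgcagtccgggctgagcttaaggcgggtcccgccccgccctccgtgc
Rsrp1: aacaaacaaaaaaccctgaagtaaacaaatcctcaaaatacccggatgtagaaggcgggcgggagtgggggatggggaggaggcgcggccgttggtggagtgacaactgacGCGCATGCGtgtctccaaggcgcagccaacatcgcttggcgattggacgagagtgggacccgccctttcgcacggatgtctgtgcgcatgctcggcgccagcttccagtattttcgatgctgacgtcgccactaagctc
Tbx18: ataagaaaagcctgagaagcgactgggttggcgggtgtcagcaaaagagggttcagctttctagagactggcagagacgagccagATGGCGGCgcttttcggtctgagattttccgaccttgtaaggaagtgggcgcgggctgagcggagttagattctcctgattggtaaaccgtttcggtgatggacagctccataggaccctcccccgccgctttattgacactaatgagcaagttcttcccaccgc
Hspa4: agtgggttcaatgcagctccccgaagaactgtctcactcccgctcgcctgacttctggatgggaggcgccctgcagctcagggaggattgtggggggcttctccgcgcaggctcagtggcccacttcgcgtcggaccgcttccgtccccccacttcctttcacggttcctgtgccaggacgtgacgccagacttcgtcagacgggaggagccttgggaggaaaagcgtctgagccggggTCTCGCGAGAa
Hmga1: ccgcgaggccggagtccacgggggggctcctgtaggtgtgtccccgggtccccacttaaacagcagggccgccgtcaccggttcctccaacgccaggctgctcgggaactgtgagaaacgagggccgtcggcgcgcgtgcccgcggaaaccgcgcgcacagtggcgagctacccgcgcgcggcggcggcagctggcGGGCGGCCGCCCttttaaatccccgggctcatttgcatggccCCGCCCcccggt
Sox12: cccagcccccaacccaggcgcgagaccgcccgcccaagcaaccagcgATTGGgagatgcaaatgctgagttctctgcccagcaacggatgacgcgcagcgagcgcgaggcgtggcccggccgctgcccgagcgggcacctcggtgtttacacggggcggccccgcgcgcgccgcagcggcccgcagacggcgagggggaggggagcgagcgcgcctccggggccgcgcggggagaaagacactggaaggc

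These 6 promoters ranged widely in CpG content. The 300 bases around the start, 250 before and 50 after, held 15 CpG in Tbx18, 24 in Rsrp1, 25 in Hspa4, 40 in Anp32b, 40 in Hmga1 and 47 in Sox12. Their observed over expected CpG, which compares CpG with what the C and G content alone would give, was 0.75 in Tbx18 and 1.07 in Sox12. The nearest H2AK119ub peak lay 241 bp from the Tbx18 peak, 17739 bp from that of Rsrp1 and 155828 bp from that of Hspa4.

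The peaks were of middling width. Their median was 1500.5 bp (1488 to 1516), with quartiles of 1263 and 1787 bp and extremes of 582 and 5281 bp. Peaks at gene ends that overlapped H2AK119ub were wider, with a median of 1911.5 bp (1880 to 1948), and peaks at no gene end without H2AK119ub were narrower, at 1273 bp (1251 to 1305). Among the overlapping peaks the median was 1838 bp where the mark was called in DDX5-/- cells alone (240 peaks), 1636.5 bp where it was called in wild-type cells alone (554 peaks) and 2035 bp where it was called in both (1816 peaks). In 5 classes of equal size, from the narrowest gene-end peaks to the widest, the share free of the mark was 72.5%, 68.9%, 59.3%, 46.0% and 20.8%. A wider peak has more bases that can touch an H2AK119ub peak, and the part of this in the gradient was not tested.

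**Figure D1:**
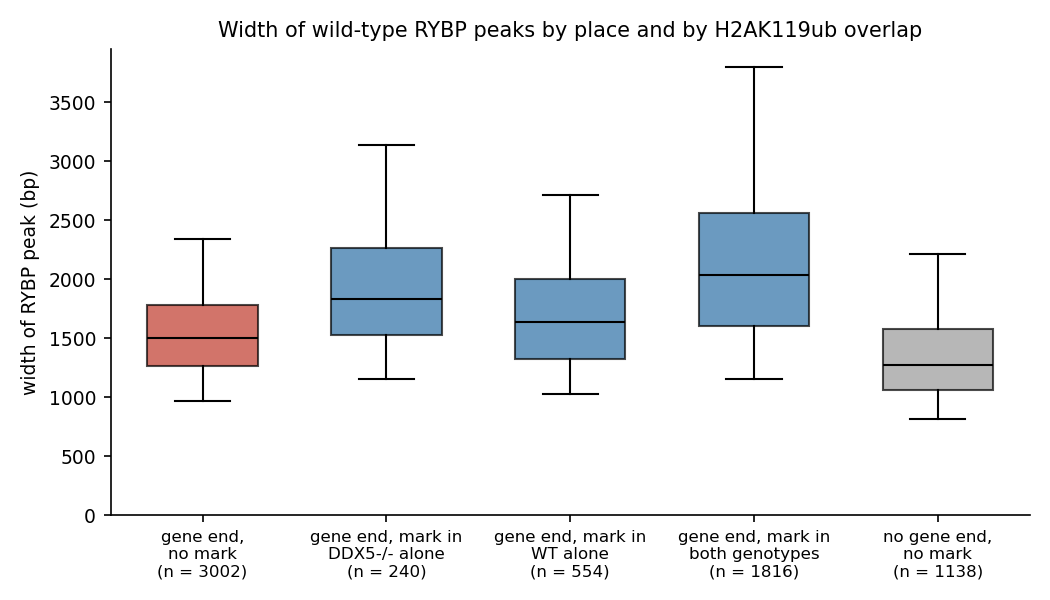
Width in bp of wild-type RYBP peaks by place and by overlap with H2AK119ub in DDX5-/- cells alone, wild-type cells alone, both or neither. Boxes span the quartiles with the median as a line, and whiskers run from the 5th to the 95th percentile of peaks; the peaks without the mark at gene ends (median 1500.5 bp) sit below each class of marked gene-end peak and above the unmarked peaks away from gene ends (1273 bp).

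The widest peak of the set, 5281 bp on chromosome 17 from 34118338 to 34123618, lay at H2-DMa, which encodes a chain of the class II peptide loader, and at Brd2, a bromodomain reader of acetylated histones. Hmga1 came next with 3774 bp. A peak of 3607 bp lay at Hsf2bp and Rrp1b, and peaks of 3571, 3496 and 3364 bp lay at Klf16, Pbx3 and Klf10, for a Krüppel-like, a homeodomain and another Krüppel-like transcription factor. Sox12 (3507 bp) and Anp32b (3438 bp) complete the 8 widest. The narrowest peaks lay at Pip5k1b, a phosphoinositide kinase (582 bp), Ugt8a, a galactosyltransferase of myelin lipids (619 bp), and Kbtbd6 (635 bp).

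H2AK119ub was absent from the peaks by choice, but its distance was not fixed. The median gap from a peak to the nearest H2AK119ub peak of either genotype was 75.5 kb (70.3 to 81.2), and it was 116 kb to the nearest DDX5-/- peak and 93.0 kb to the nearest wild-type peak, the longer list. A minority lay close: 188 peaks (6.26%) had the mark within 1 kb, 345 (11.5%) within 5 kb and 519 (17.3%) within 10 kb. Of those 519, 84 had it within 10 kb in DDX5-/- cells alone, 213 in wild-type cells alone and 222 in both. The farthest was the peak at Gbe1, the glycogen branching enzyme, at 10.7 Mb. Those at Pcdh9, a protocadherin, Aasdhppt, a phosphopantetheinyl transferase, Nrip1, a nuclear receptor corepressor, and Cadm2, a synaptic adhesion protein, followed at 9.09, 8.99, 8.33 and 8.02 Mb.

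At the edge of the rule, the peak at Colgalt2 lay 2 bp from a wild-type H2AK119ub peak, and those at Slc24a2, Ccn1, Rgp1 and Aldh3a2 lay 5, 12, 13 and 15 bp from one. The peaks left out by the smallest overlap lay at Snph (1 bp shared, with the DDX5-/- list) and at Slc25a23, Gdf5, Sypl2 and Dcxr (2, 9, 11 and 12 bp shared, with the wild-type list). On distance, the centres just inside 2 kb lay 1991 bp from L3mbtl3, 1987 bp from Ago3 and 1972 bp from Cd37, and those just outside lay 2009 bp from Gramd1c, 2012 bp from Mfsd7a and 2013 bp from Btbd10.

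The peaks sat at gene starts far more often than at the other end of genes. Strand was known, through the RefSeq promoter table, for the nearest gene of 2420 peaks, and 2327 of these were nearest to the start (96.2%, 95.3% to 96.9%), against 1750 of 1967 gene-end peaks with H2AK119ub (89.0%, 87.5% to 90.3%). The difference was 7.19 percentage points (5.63 to 8.81). Of the 93 peaks nearest to a far end, 14 had the start of another protein-coding gene within 2 kb and 19 held a RefSeq start of some gene. Away from chromosome 18, which the promoter table lacks, 2249 of 2911 peaks (77.3%) spanned a start in the table, compared with 66.2% of gene-end peaks with the mark and 28.8% of unmarked peaks at no gene end.

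Around the start the peaks leaned into the gene. Their centres lay a median of 187 bp downstream of it (174 to 200), against 341 bp (316 to 364) for gene-end peaks with H2AK119ub. Centres within 500 bp of the start made up 78.6% (76.9% to 80.2%) of the unmarked peaks and 61.1% (58.8% to 63.4%) of the marked ones. The unmarked peaks reached a median of 556 bp upstream and 949 bp downstream, and the marked ones 606.5 and 1320 bp. Most of the difference in width therefore lay on the downstream side. The start itself was covered by 89.2% of unmarked and 87.3% of marked peaks, shares whose intervals overlap.

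**Figure D2:**
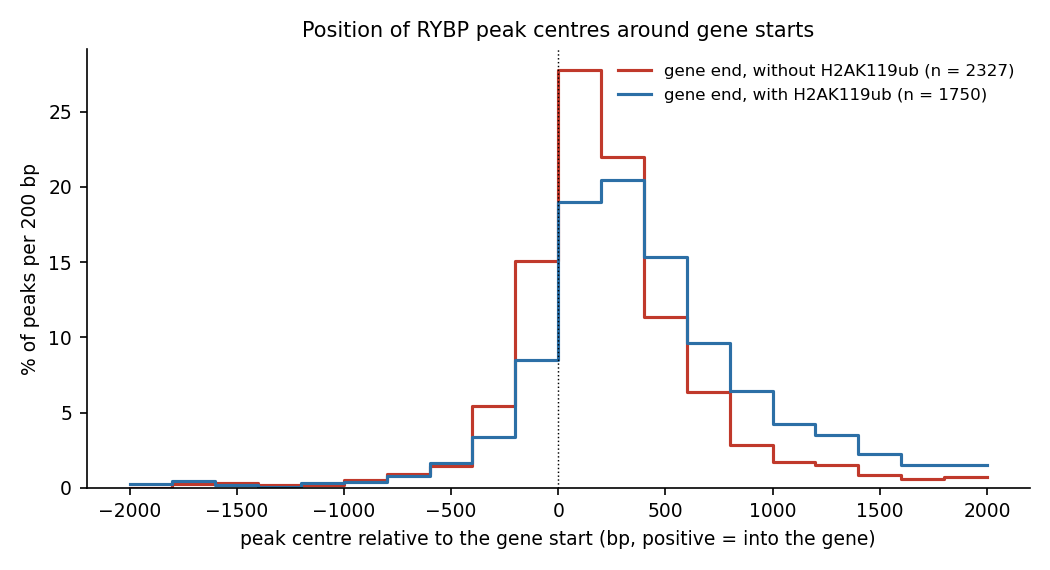
Share of start-nearest RYBP peaks (y axis, % per 200 bp) by the position of the peak centre relative to the gene start (x axis, bp, positive into the gene), for 2327 gene-end peaks without H2AK119ub and 1750 with it. The unmarked peaks gather more tightly around their median of 187 bp downstream, and the marked ones trail further into the gene.

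The peaks served 3475 of 18496 protein-coding genes, which sets the background at 18.8% of genes. Another 2644 genes (14.3%) had RYBP only in peaks that overlapped H2AK119ub, 1947 had H2AK119ub at an end without RYBP, and 10430 had neither. Of the 3475 genes, 87 also had a marked RYBP peak and 483 (13.9%) had an H2AK119ub peak within 2 kb of one of their ends, so the label describes the peak and not always the gene. Over the gene body with 2 kb on either side, 673 (19.4%, 18.1% to 20.7%) held the mark somewhere. The genes were long, with a median of 29.6 kb, against 20.0 kb for genes with marked RYBP peaks, 14.1 kb for genes with the mark alone and 14.9 kb for genes with neither.

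Peaks between neighbouring genes were common. Of the 3002 peaks, 526 had more than 1 protein-coding gene within 2 kb of the centre (17.5%, 16.2% to 18.9%), compared with 12.3% (11.1% to 13.6%) of gene-end peaks with the mark, a difference of 5.26 points (3.40 to 7.11). Both genes of a head-to-head pair, whose starts diverge within 1 kb of each other, shared 258 peaks (8.59%). Of genes with known strand, 18.9% (17.5% to 20.4%) belonged to such a pair, against 8.60% with marked RYBP peaks, 7.19% with the mark alone and 9.02% with neither. The most crowded peak, 2139 bp on chromosome 17, lay at Mrps34, Eme2, Nme3 and Mapk8ip3, a mitochondrial ribosomal protein, a subunit of a DNA structure-specific nuclease, a nucleoside diphosphate kinase and a kinase scaffold. Peaks with 3 genes followed, among them 1 of 2502 bp on chromosome 12 at Gon7, Ubr7 and the predicted gene Gm20604, and 1 of 1724 bp on chromosome 4 at 1110065P20Rik, Yrdc and Mtf1. Yrdc and Mtf1 are genes for an enzyme of tRNA modification and a metal-responsive transcription factor. One of the pairs was Ddx5 with Cep95, a centrosomal protein gene. They shared a peak of 2289 bp on chromosome 11 (106787415 to 106789703) that lay 406466 bp from the nearest DDX5-/- H2AK119ub peak and 408235 bp from the nearest wild-type one.

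Promoters at these peaks were mostly rich in CpG. Promoters were called CpG-rich when their 300 bases had at least 50% GC and an observed over expected CpG of at least 0.6. Of 2830 genes with a promoter sequence, 77.7% (76.2% to 79.2%) were CpG-rich, against 68.0% (65.9% to 70.0%) of 2011 genes with marked RYBP peaks, 35.0% of 1502 with the mark alone and 34.6% of 8437 with neither. The difference from genes with marked RYBP peaks was 9.76 points (7.22 to 12.3). Their median observed over expected CpG was 0.82, against 0.74, 0.45 and 0.37 in the same order of classes, while GC content did not follow that order, at 63.3%, 64.7%, 57.7% and 51.3%. The first listed start lay inside the RYBP peak for 2396 of the 2830 genes (84.7%). Among the 2327 peaks of the set nearest to a start of known strand, wider peaks had more CpG. In 4 classes of equal size, from the narrowest to the widest, the median per 300 bases was 21.5, 24, 26 and 27. The CpG-rich share was 76.6%, 79.7%, 79.9% and 84.2%. Intervals of neighbouring classes overlap, and those of the narrowest (73.0% to 79.9%) and widest (81.0% to 86.9%) do not.

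**Figure D3:**
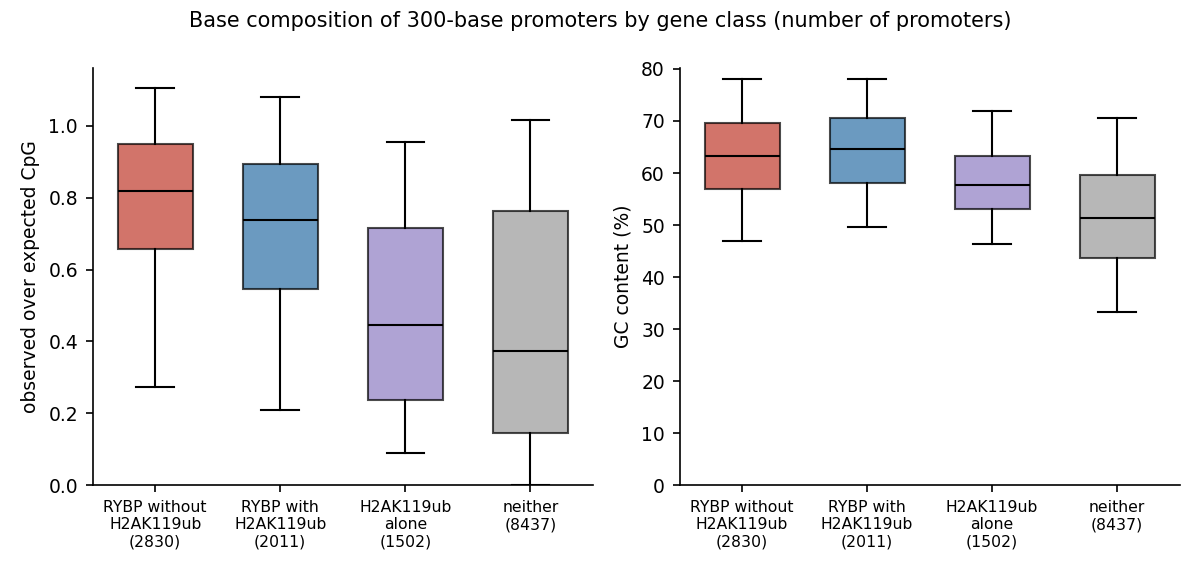
Observed over expected CpG (left) and GC content in % (right) of 300-base RefSeq promoters for genes with RYBP without H2AK119ub, RYBP with it, H2AK119ub alone and neither. Boxes span the quartiles with the median as a line and whiskers run from the 5th to the 95th percentile of promoters; the CpG ratio is highest for RYBP without the mark (median 0.82), although GC content is slightly higher for RYBP with it (64.7% against 63.3%).

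Of 10 motifs counted on both strands of the 300 bases, the ETS core CCGGAAG had the largest difference, in percentage points, between genes with unmarked and genes with marked RYBP peaks. It occurred in 19.0% (17.6% to 20.5%) of promoters at unmarked peaks, 8.20% (7.08% to 9.49%) at marked peaks and 12.3% of all 14780 promoters. The difference of 10.8 points (8.91 to 12.7) was 12.2 points (9.84 to 14.5) among CpG-rich promoters alone, at 21.6% and 9.44%. CpG-rich promoters with neither RYBP nor the mark held it in 24.9% (23.4% to 26.5%), and those with the mark alone in 17.0%, so among CpG-rich promoters the share at marked RYBP peaks was the lowest of the 4 classes. Over all promoters the YY1 motif ATGGCGGC was in 5.19% at unmarked peaks, 2.14% at marked peaks and 3.25% of all. The NRF1 motif GCGCATGCG was in 4.35%, 2.09% and 2.46%, and the ZBTB33 motif TCTCGCGAG in 1.38%, 0.646% and 0.968%. Among CpG-rich promoters these 3 motifs were in 6.05%, 5.18% and 1.73% at unmarked peaks, in 2.71%, 2.71% and 0.805% at marked peaks, in 7.24%, 2.67% and 0.762% with the mark alone and in 7.20%, 5.32% and 2.74% with neither.

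The motifs tied to the PCGF6 complex did not separate unmarked from marked RYBP peaks. The E-box CACGTG, bound by MAX dimers among others, occurred in 11.6% of promoters at unmarked and 10.8% at marked peaks (difference 0.764 points, -1.06 to 2.54), against 8.14% of all. The E2F motif GCGGGAA occurred in 9.26% and 8.06% (difference 1.20 points, -0.42 to 2.78), against 6.10% of all. The SP motif GGGCGG was in 69.5% and 67.9%, against 47.3% of all, the NFY motif CCAAT in 38.1% and 35.6%, against 39.2%, and the CRE TGACGTCA in 2.54% of each, against 2.35%. The TATA motif TATAAA was in 5.62% and 6.86%, against 13.4% of all. For each of these 6 the interval of the difference between unmarked and marked peaks included 0. Among CpG-rich promoters alone it did not for 3 of them: SP and TATA were lower at unmarked peaks, by -3.07 points (-5.76 to -0.31) and -2.09 points (-3.66 to -0.64), and NFY was higher, by 3.47 points (0.23 to 6.66). A match shows that the letters are in the window and not that a factor was bound.

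**Figure D4:**
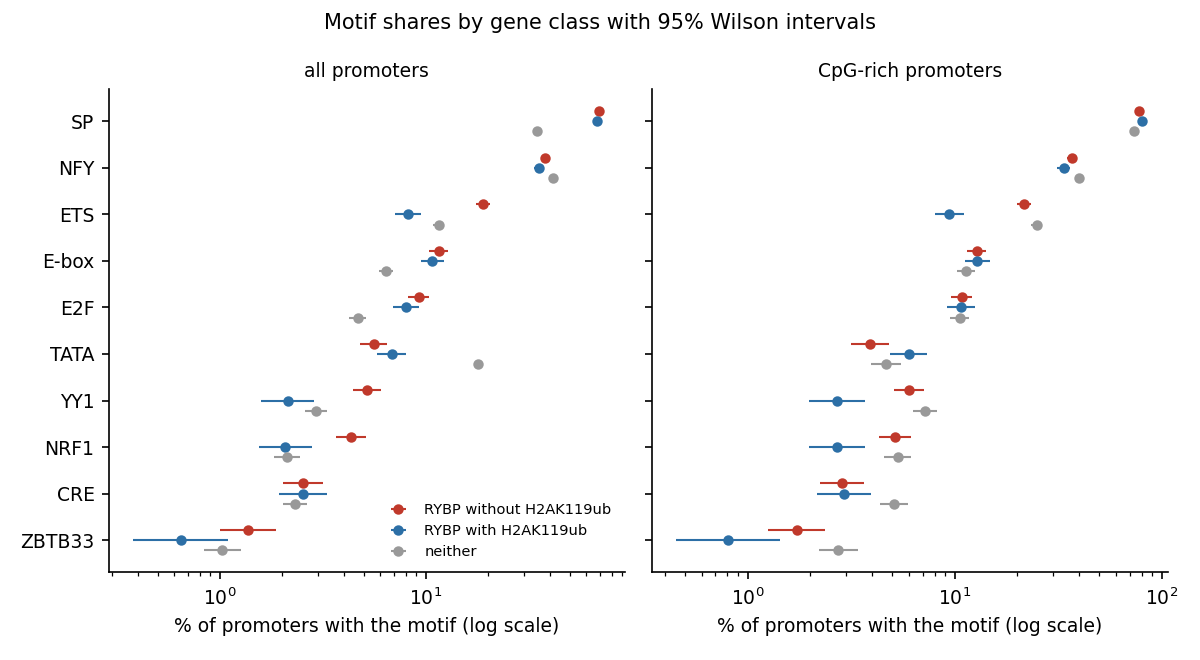
Share of promoters (x axis, %, log scale) that hold each of 10 motifs on either strand, for genes with RYBP without H2AK119ub, RYBP with it and neither, among all promoters (left) and CpG-rich promoters (right). Points are shares and bars 95% Wilson intervals; the ETS share is 19.0% at unmarked and 8.20% at marked RYBP peaks, and among CpG-rich promoters it is 24.9% with neither.

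By function, the genes were read in 33 lists defined by gene symbols, each set against the 18.8% of all protein-coding genes. Because the peaks favour CpG-rich promoters, the same count is also given over the CpG-rich promoters of a list, for which the background was 31.4% (2200 of 7007). Lists differ in length and neighbouring genes share peaks, and no list was tested.

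The highest share of the 33 lists was found among genes of cell division. Of 36 centrosomal Cep genes, 19 had such a peak (52.8%, 37.0% to 68.0%), and 14 of the 25 with a CpG-rich promoter did (56.0%). Cep95, which shares its peak with Ddx5, had 2289 bp, Cep83, for a protein of centriole distal appendages, 1906 bp, and Cep290, for a protein of the ciliary transition zone, 1864 bp. None of the 19 peaks lay within 5 kb of H2AK119ub, with an upper limit of 16.8% that includes the 11.8% of all 3475 genes at these peaks (409 genes). Cell cycle kinases, cyclins and checkpoint genes had 27 of 84 (32.1%, 23.1% to 42.7%), or 22 of 60 with a CpG-rich promoter (36.7%). Among them were Cdk6 (2299 bp), a kinase of G1 phase, Ccne2 (1998 bp), a cyclin of S phase entry, Cdc20 (1857 bp), an activator of the anaphase-promoting complex, and Plk4 (1168 bp), which drives centriole duplication. The widest of that list, Cdc42ep3 (2417 bp), encodes an effector of the GTPase CDC42, and Cdc42bpa, Cdc42bpb and Cdc42se1 likewise entered by their symbols. DNA repair had 12 of 45 (26.7%) and DNA replication 9 of 35 (25.7%), with intervals that include the background. Fancf, of the Fanconi anaemia complex, had 2098 bp, Parp14, an ADP-ribosyltransferase, 2090 bp, Mcm8, a helicase of homologous recombination, 2017 bp, and Prim2, a primase subunit, 1778 bp. Cohesin and condensin had 4 of 19 (21.1%), led by Ncapg (1818 bp) and Smc6 (1794 bp). Among CpG-rich promoters, repair had 8 of 27 (29.6%), replication 5 of 22 (22.7%) and cohesin and condensin 3 of 14 (21.4%). The share over all genes with a CpG-rich promoter was 31.4%. All of these CpG-rich counts, including those of Cep and cell cycle genes, are small and carry no intervals.

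RNA and translation genes were covered unevenly. Translation initiation factors had 19 of 49 (38.8%, 26.4% to 52.8%), among them Eif3b (2304 bp), a scaffold subunit of eIF3, and Eif5 (1871 bp), the GTPase activator of eIF2. DEAD and DEAH box helicases had 16 of 43 (37.2%, 24.4% to 52.1%), with Ddx5 (2289 bp), Ddx43 (2177 bp) and Ddx17 (1892 bp), the close paralog of Ddx5. Splicing factors had 22 of 69 (31.9%, 22.1% to 43.6%), led by U2af2 (2654 bp), which recognises the polypyrimidine tract, and Hnrnpa0 (2571 bp), and with Srsf1 (2040 bp). Among CpG-rich promoters these 3 lists had 14 of 32 (43.8%), 14 of 36 (38.9%) and 21 of 55 (38.2%). The share over all genes with such a promoter was 31.4%, and these small counts carry no intervals. Cytosolic ribosomal proteins had 15 of 70 (21.4%, 13.4% to 32.4%), led by Rpl7 (2735 bp) and Rpl8 (2634 bp), and 8 of 41 among CpG-rich promoters (19.5%). Mitochondrial ribosomal proteins had 17 of 69 (24.6%), led by Mrps34 (2139 bp) and Mrpl17 (2092 bp). Aminoacyl-tRNA synthetases had 6 of 32 (18.8%), led by Ears2 (2316 bp) and Wars2 (1721 bp), both mitochondrial, and RNA polymerase II, TFII and Mediator had 14 of 72 (19.4%), led by Taf4b (1732 bp) and Gtf2h1 (1556 bp). Nuclear pore and transport receptors had 10 of 41 (24.4%), led by Nup50 (1699 bp) and Ranbp9 (1696 bp), the second of which entered by its symbol. Among CpG-rich promoters these 4 lists had 12 of 50 (24.0%), 5 of 17 (29.4%), 12 of 53 (22.6%) and 8 of 29 (27.6%). The background was 31.4%, and these small counts again carry no intervals.

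Among genes of protein turnover, traffic and mitochondria, the ubiquitin, autophagy and traffic lists had intervals above the 18.8% background. The interval of the proteasome genes included it. Ubiquitin ligases and proteases had 61 of 223 (27.4%, 21.9% to 33.6%), led by Usp3 (2492 bp) and Usp1 (2457 bp), both deubiquitinases. Autophagy and vacuolar sorting had 16 of 52 (30.8%), led by Ulk2 (2160 bp) and Atg3 (2129 bp), and ER and Golgi traffic had 37 of 130 (28.5%, 21.4% to 36.7%), led by the GTPases Rab14 (2240 bp) and Rab10 (2170 bp). Within CpG-rich promoters these 3 were at 32.8%, 35.5% and 29.5%, near the 31.4% of all genes with a CpG-rich promoter. Chaperones had 18 of 81 (22.2%), led by Hsp90b1 (2733 bp), the chaperone of the endoplasmic reticulum, and Cct5 (2398 bp), a chaperonin subunit. Proteasome genes had 7 of 47 (14.9%, 7.41% to 27.7%), led by Psmd3 (1533 bp) and Psmg2 (1449 bp), the second of which encodes an assembly chaperone, and 3 of 28 among CpG-rich promoters (10.7%). Respiratory chain and ATP synthase had 23 of 86 (26.7%, 18.5% to 36.9%), led by Uqcrc2 (2342 bp) and Atp5g1 (2097 bp). Of these 86 genes, 0 had only marked RYBP peaks (upper limit 4.28%), against 14.3% of all genes. Mitochondrial import had 5 of 21 (23.8%), led by Tomm34 (1866 bp) and Timm8b (1577 bp), and intraflagellar transport and BBSome 5 of 20, led by Ift140 (2469 bp) and Bbs7 (1511 bp). Among CpG-rich promoters chaperones had 13 of 48, the respiratory chain and ATP synthase 17 of 54 (31.5%), mitochondrial import 5 of 12 and intraflagellar transport and BBSome 4 of 15.

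Genes of chromatin regulators fell into both kinds. Of 37 Polycomb subunits, 10 had an unmarked RYBP peak (27.0%, 15.4% to 43.0%). Another 12 had only marked ones (32.4%, 19.6% to 48.5%), against 14.3% of all genes. Of the 31 with a CpG-rich promoter, 10 had an unmarked peak (32.3%), near the background. Of the 10, 3 belong to the PCGF6 complex: Mga (2133 bp), Pcgf6 (1724 bp) and Max (1197 bp). Rnf2, the RING1B ubiquitin ligase of canonical and variant complexes, had 1694 bp and lay 348295 bp from the nearest DDX5-/- mark and 154529 bp from the nearest wild-type mark. Skp1 (1497 bp) and Fbrsl1 (1307 bp, at its far end) belong to other variant complexes. Of PRC2, which methylates histone H3, Suz12 (1170 bp) and Rbbp4 (1134 bp) are core subunits and Jarid2 (1493 bp) and Phf1 (1682 bp, at its far end) are accessory ones. The Rybp paralog Yaf2 had a peak that overlapped the mark, and Rybp lies on chromosome 6, outside the chromosomes examined. Other chromatin modifiers and remodellers had 23 of 89 (25.8%), led by Brd2 (5281 bp) and Kmt5b (2316 bp), a histone H4 methyltransferase. Zinc finger genes of the Zfp, Zkscan, Zscan and Zbtb series had 82 of 413 (19.9%, 16.3% to 24.0%), led by Zfp646 and Zfp668, which share 1 peak of 2340 bp. Among CpG-rich promoters these 2 lists had 15 of 59 (25.4%) and 52 of 164 (31.7%).

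Developmental transcription factors had mostly marked RYBP peaks and few unmarked ones. Of 143 developmental transcription factors, 15 had an unmarked peak (10.5%, 6.46% to 16.6%). Marked RYBP peaks alone lay at 102 (71.3%), against 14.3% of all genes. The mark lay within 5 kb at 7 of the 15 (46.7%, 24.8% to 69.9%), compared with 409 of all 3475 genes (11.8%, 10.7% to 12.9%). Among these were Foxo3 (284 bp away), Tbx18 (241 bp), Sox11 (4279 bp), Foxn3 (2358 bp), Foxj1 (163 bp) and Hoxd3 (94 bp). Of the other 8, Sox12 had the widest peak (3507 bp), Otx2 was met at its far end, and Foxk1, Foxk2, Foxn2 and Foxj3 are forkhead genes that entered by symbol. Tbx3 (2329 bp) and Six4 (1397 bp) make up the 8. Wnt, Fgf, Bmp and Notch signals had 9 of 61 (14.8%, 7.96% to 25.7%), an interval that includes the 18.8% background, and 38 had only marked ones (62.3%). The widest unmarked peaks of these signal genes lay at Bmp2k (2348 bp), a kinase that entered by its symbol, and at the receptor gene Notch2 (2032 bp). Neuronal receptors and channels had 16 of 152 (10.5%, 6.58% to 16.4%), and 57 had only marked ones (37.5%). The widest unmarked peaks there lay at the potassium channel genes Kcnq5 (2471 bp) and Kcns3 (2331 bp). Among CpG-rich promoters these 3 lists had 8 of 59 (13.6%), 5 of 31 (16.1%) and 3 of 40. The counts depended on the overlap rule. When the mark had to cover at least 50% of the RYBP peak, 23.4% of all genes had an unmarked peak. By that rule 25 developmental transcription factors (17.5%), 18 of 61 signal genes and 30 of 152 neuronal genes counted as unmarked. The signal genes then lay above the share of all genes, and the developmental factors and neuronal genes below it.

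Collagen, keratin and olfactory receptor genes had 1 gene with an unmarked RYBP peak in all. Of their promoters with a sequence, 9 of 29, 2 of 36 and 1 of 1178 were CpG-rich. Collagens had 0 of 38, with a Wilson upper limit of 9.18%, or 7.89% by the limit of 3 counts that a count of 0 allows. Keratins had 0 of 53, with limits of 6.76% and 5.66%. With the mark required over at least 50% of the RYBP peak the counts were 4 collagens and 2 keratins, and with gene ends within 5 kb they were 3 and 1. Olfactory and vomeronasal receptors had 1 of 1365, Olfr94, met at its far end. Only marked RYBP peaks lay at 14 of 38 collagens (36.8%), against 14.3% of all genes. H2AK119ub alone lay at 32 of 53 keratins (60.4%), against 1947 of all 18496 genes. Solute carriers and germline genes had both unmarked and marked RYBP peaks. Only marked ones lay at 68 of 324 solute carriers (21.0%, 16.9% to 25.7%), against 14.3% of all genes. Unmarked peaks lay at 68 (21.0%), led by the zinc exporter Slc30a1 (2871 bp) and the glycine transporter Slc6a9 (2866 bp). Of 33 germline and meiosis genes, 16 had only marked RYBP peaks (48.5%, 32.5% to 64.8%), against the same 14.3%. Unmarked peaks lay at 8 (24.2%, 12.8% to 41.0%), an interval that includes the 18.8% background. The widest was Tdrd3 (2512 bp), a reader of methylarginine active in many tissues, followed by Tex14 (1616 bp), needed for germ cell bridges, and the meiotic axis genes Sycp3 (1536 bp) and Hormad1 (1412 bp) were among the 8. Among CpG-rich promoters solute carriers had 36 of 120 and germline genes 6 of 20.

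**Figure D5:**
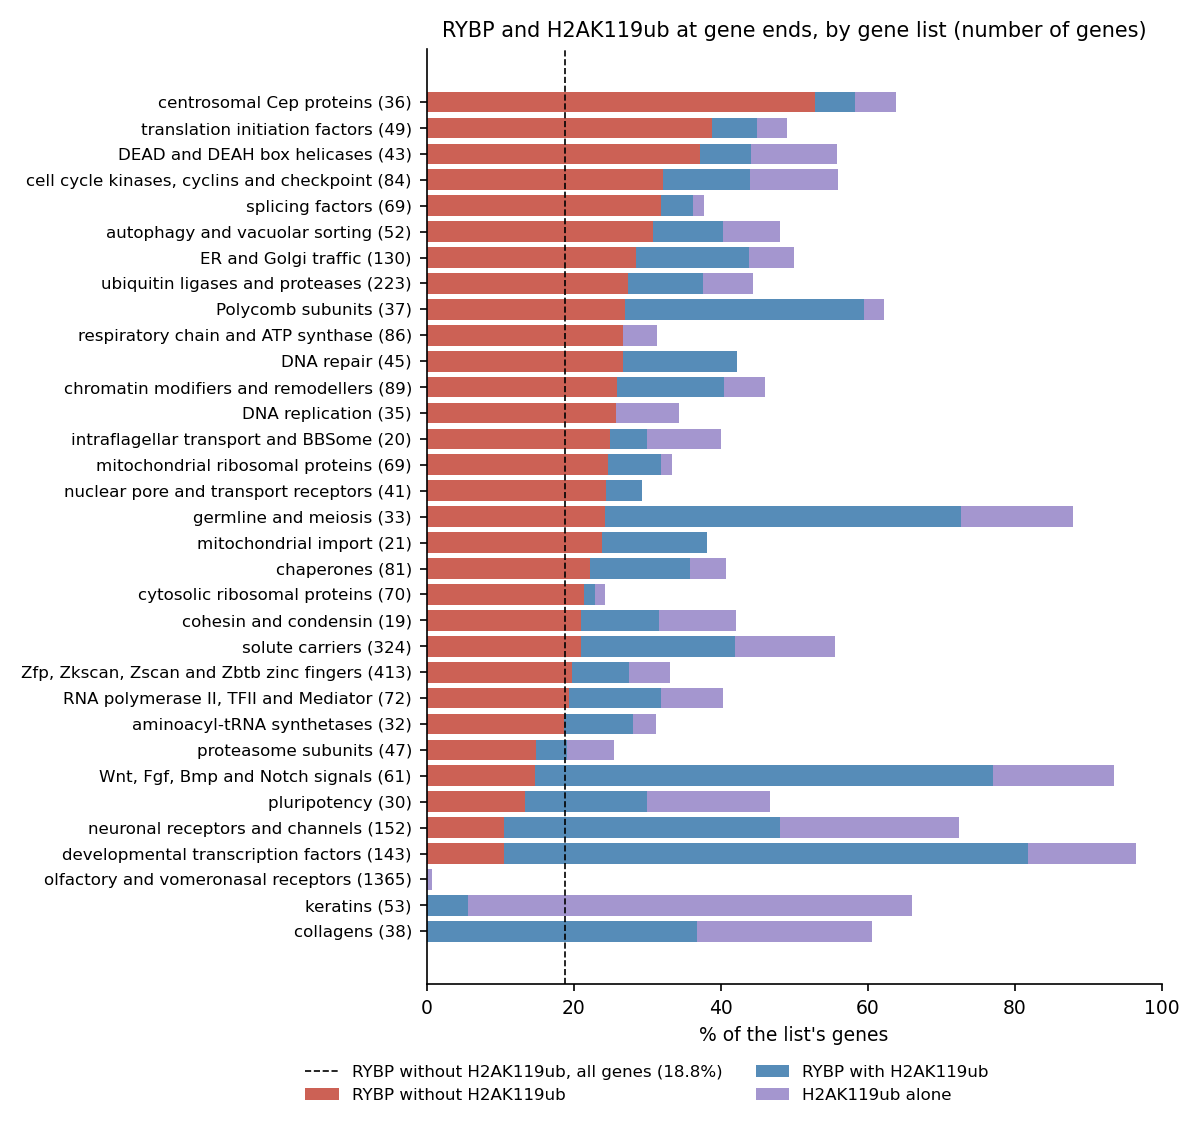
Share of each of 33 gene lists (x axis, % of the list's genes, with the number of genes in brackets) that had a RYBP peak without H2AK119ub, only RYBP peaks with it, or H2AK119ub alone at a gene end. The dashed line is the 18.8% of all protein-coding genes; centrosomal Cep genes reach 52.8%, while developmental transcription factors have 10.5% unmarked and 71.3% marked.

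Of 30 pluripotency genes, 4 had an unmarked peak (13.3%, 5.31% to 29.7%, an interval that includes the background). Another 5, Utf1 among them, had only marked RYBP peaks (16.7%, 7.34% to 33.6%), near the 14.3% of all genes. Of the 9 with a CpG-rich promoter, 1 had an unmarked peak. The 4 were Tbx3 (2329 bp), Klf4 (2113 bp), Tcl1 (1750 bp) and Klf5 (1488 bp), of which Tbx3, Klf4 and Klf5 encode transcription factors of the naive network and Tcl1 an activator of the kinase AKT. The Klf4 peak lay 73646 bp from the nearest DDX5-/- mark and 120056 bp from the nearest wild-type one. Pou5f1 and Sox2 had no peak of either kind, and Esrrb had H2AK119ub alone. Of the fibroblast marker genes, which the feeder layer would contribute, Vim had an unmarked RYBP peak of 2247 bp, Col1a1 a marked one, Thy1, Pdgfra and Pdgfrb had H2AK119ub alone, and Col3a1 and S100a4 had neither. A peak list gives no expression, so the share of feeder chromatin was not tested.

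Chromosomes differed in how often gene-end RYBP peaks were free of the mark. The share ran from 43.2% (37.6% to 49.0%) on chromosome 15 and 46.0% (41.7% to 50.3%) on chromosome 11 to 61.0% (54.9% to 66.7%) on chromosome 13 and 64.5% (57.4% to 71.0%) on chromosome 16.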

How the data were processed

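ChIP-seq measured H2AK119ub in DDX5-/- and wild-type cells, and RYBP in the wild type. Each had 1 library, grouped by sample title. The 2 input libraries were not used. Bowtie2 2.2.5, MACS 1.4 and the build mm10 are named in the submitters' processing notes. What each tool did, the cutoff for peaks and any use of inputs as controls are not stated there. The authors deposited 1 peak list per library with chromosome, start and end, so peaks were called per library, and the deposited score column holds 0 for every peak. Depth is unknown. Weaker enrichment gives fewer and narrower peaks and so more RYBP peaks without the mark.

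Starts were converted to positions counted from 1. Peaks overlapped when they shared at least 1 bp. Gene positions were those of RefSeq on GRCm38.p6, in a table without strand. Strand and 300-base promoters came from the RefSeq promoter table, matched by gene ID, and 14780 of 18496 protein-coding genes had an entry. Where several starts were listed, the one farthest 5′ was used for composition and motifs. Printed sequences were restricted to promoters at the annotated start that overlap no other gene, and to their 250 upstream bases. A gene had H2AK119ub at an end when a peak of the mark came within 2 kb of its start or end. A gene with both kinds of RYBP peak was counted under RYBP without H2AK119ub. Shares have Wilson intervals, differences Newcombe intervals and medians order-statistic intervals, computed with Python 3.11.15, NumPy 2.4.6, pandas 2.3.3 and SciPy 1.17.1. The scripts were tested on simulated data, against bedtools 2.31.1 for overlaps.

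The members, the gene lists and the motifs were chosen with earlier results of these data known. Genes were named by rule: the 8 widest peaks, the 5 farthest from and the 5 closest to the mark, the 5 left out by the smallest overlap, those at the 2 kb limit, the 3 with the most genes, the 2 widest in each list, the widest with each motif, all members of the Polycomb and pluripotency lists, and Ddx5, Rybp and Yaf2. Other genes named as examples, and the narrowest peaks, were chosen after their values were seen. Alternatives were other overlap rules, gene-end windows, chromosomes, minimum peak widths, the wild-type mark alone and a stricter CpG threshold.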

Additional observations from a re-analysis of the deposited data

How the results depend on the processing

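The number of peaks and of genes stayed within 1.5 times the values reported under every alternative run. The share of gene-end RYBP peaks without H2AK119ub was 67.5% when the mark had to cover at least 50% of the peak, 50.1% and 47.3% when a mark within 1 kb or 5 kb counted as overlap, 56.6% and 50.7% with gene ends within 1 kb and 5 kb, 57.8% against the wild-type list alone and 59.0% with H2AK119ub peaks of at least 1 kb. The median width was 1551 bp with the 50% rule, 1527 bp on all autosomes, 1519 bp with the wild-type list alone and 1530 bp with RYBP peaks of at least 1 kb. The median distance to the mark was 40222 bp with the 50% rule, 86600 bp and 96858 bp with the 1 kb and 5 kb mark distances, 90617.5 bp with the wild-type list alone and 109184 bp with H2AK119ub peaks of at least 1 kb. The share nearest to a start was 97.5% and 93.7%, and the share with more than 1 gene 14.2% and 25.4%, with gene ends within 1 kb and 5 kb. The CpG-rich share was 76.1% with the 50% rule, 79.2% with the 5 kb mark distance, 79.6% and 75.04% with gene ends within 1 kb and 5 kb, and 56.7% at 55% GC and a CpG ratio of 0.75. Wider gene-end windows admit more peaks by construction. So does a stricter overlap rule, with 3790 peaks under the 50% rule against 3002. Counting a mark within 1 kb or 5 kb as overlap left 2814 and 2657. Other causes were not tested.

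Of the 33 lists, 5 moved by more than 1.5 times with the 50% rule, all upwards (developmental factors, signals, neuronal genes, collagens and keratins), and at most 3 did so under any other alternative. Developmental transcription factors had 25 members with the 50% rule and 8 with the 5 kb mark distance, against 15. Signals had 18 against 9 and neuronal genes 30 against 16 with the 50% rule, while the share of all genes was 23.4% against 18.8%. On all autosomes, where lists are longer, aminoacyl-tRNA synthetases had 10 against 6 and nuclear pore genes 16 against 10. No paired analysis was possible because each group has 1 library. Depth is unknown, so absence of a mark is absence of a called peak.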
